A study of Mus musculus with 6 samples.

Results

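The inflammasome and interleukin-1 family was taken as 10 genes, Pycard, Casp1, Casp4, Nlrp3, Gsdmd, Il1a, Il1b, Il1rn, Il1r1 and Il18, of the 18193 genes that the arrays measured under a single symbol. Every probe set that the platform annotation assigned to exactly 1 of these symbols was used, which gave 15 probe sets of 45037. Il1rn and Pycard had 3 probe sets each and Il1r1 had 2, and the other 7 genes had 1. The genes were chosen with the difference between the groups already known, so their values describe these arrays and are no independent evidence for the family. The 6 arrays measured RNA of cells sorted for green fluorescence out of somatosensory cortex grey matter of mice, in a series about galectins 1 and 3 after brain injury. The 3 reactive samples came from TgN(hGFAP-EGFP) GFEA mice, whose fluorescent protein is under a human GFAP promoter, taken 5 days after stab wounding, with a wound depth of 0.7 mm and a wound length of 1 to 1.2 mm. For the 3 non-reactive samples, cells came from the matching region of uninjured Tg(Aldh1l1-eGFP)OFC789Gsat mice, in which Aldh1l1 sequences drive the fluorescent protein. Both groups carry the label astrocytes. The 15 astrocyte markers checked all had at least 1 group mean at or above 4.74, the median of all probe set means. The same held for the 12 neuron, 11 oligodendrocyte and 6 oligodendrocyte precursor markers, so such a mean does not tell astrocytes from other cells. All mice were on the FVB/N background and 2 to 3 months old, and each sample pooled the cells of about 15 animals. The protocol also describes BrdU given to label dividing cells, without saying whether these animals received it. Injury and reporter line cannot be told apart, since no array held the one without the other.

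Inflammasomes are protein complexes of the cell interior that turn a danger signal into the release of cytokines. A sensor such as NLRP3 gathers the adaptor ASC, the product of Pycard, which recruits caspase-1, and caspase-1 cuts the precursors of interleukin-1β and interleukin-18 and the pore protein gasdermin D. Released interleukin-1 binds the receptor IL1R1 on neighbouring cells, including astrocytes and endothelium, and acts through MyD88 and NF-κB, while the antagonist encoded by Il1rn occupies the same receptor without signalling. In the brain, microglia and incoming myeloid cells are the best known source of the sensors and of interleukin-1β.

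In the reactive arrays the adaptor gene Pycard and the cytokine gene Il1b rose, 12.1-fold and 4.20-fold. None of the other 8 genes passed the threshold, and Casp1, the protease that ASC recruits, differed by 0.10 on the log2 scale. Il18 was the single member with a negative difference, at -1.06, without passing. Values are the authors' log2 expression values, tested with limma (reactive minus non-reactive, Benjamini-Hochberg over 45037 probe sets, threshold 0.05). Of the 15 probe sets 2 passed, both higher, while 0.266% of all probe sets passed in that direction and 0.85% in either. An unadjusted p under 0.05 was found for 4 of the 15, against 13.2% of all probe sets. The groups did not overlap for 7 of the 15, all higher in the reactive arrays, while 12.8% of all probe sets had such groups, and none of the 15 lay apart in the other direction, against 8.08% of all probe sets. Since the members were picked from this same comparison, nothing is read from these counts. The median difference was 0.42 over the member probe sets and 0.10 over all probe sets. Fewer cells of a type and less RNA in each cell cannot be told apart in such pooled samples.

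**Figure D1:**
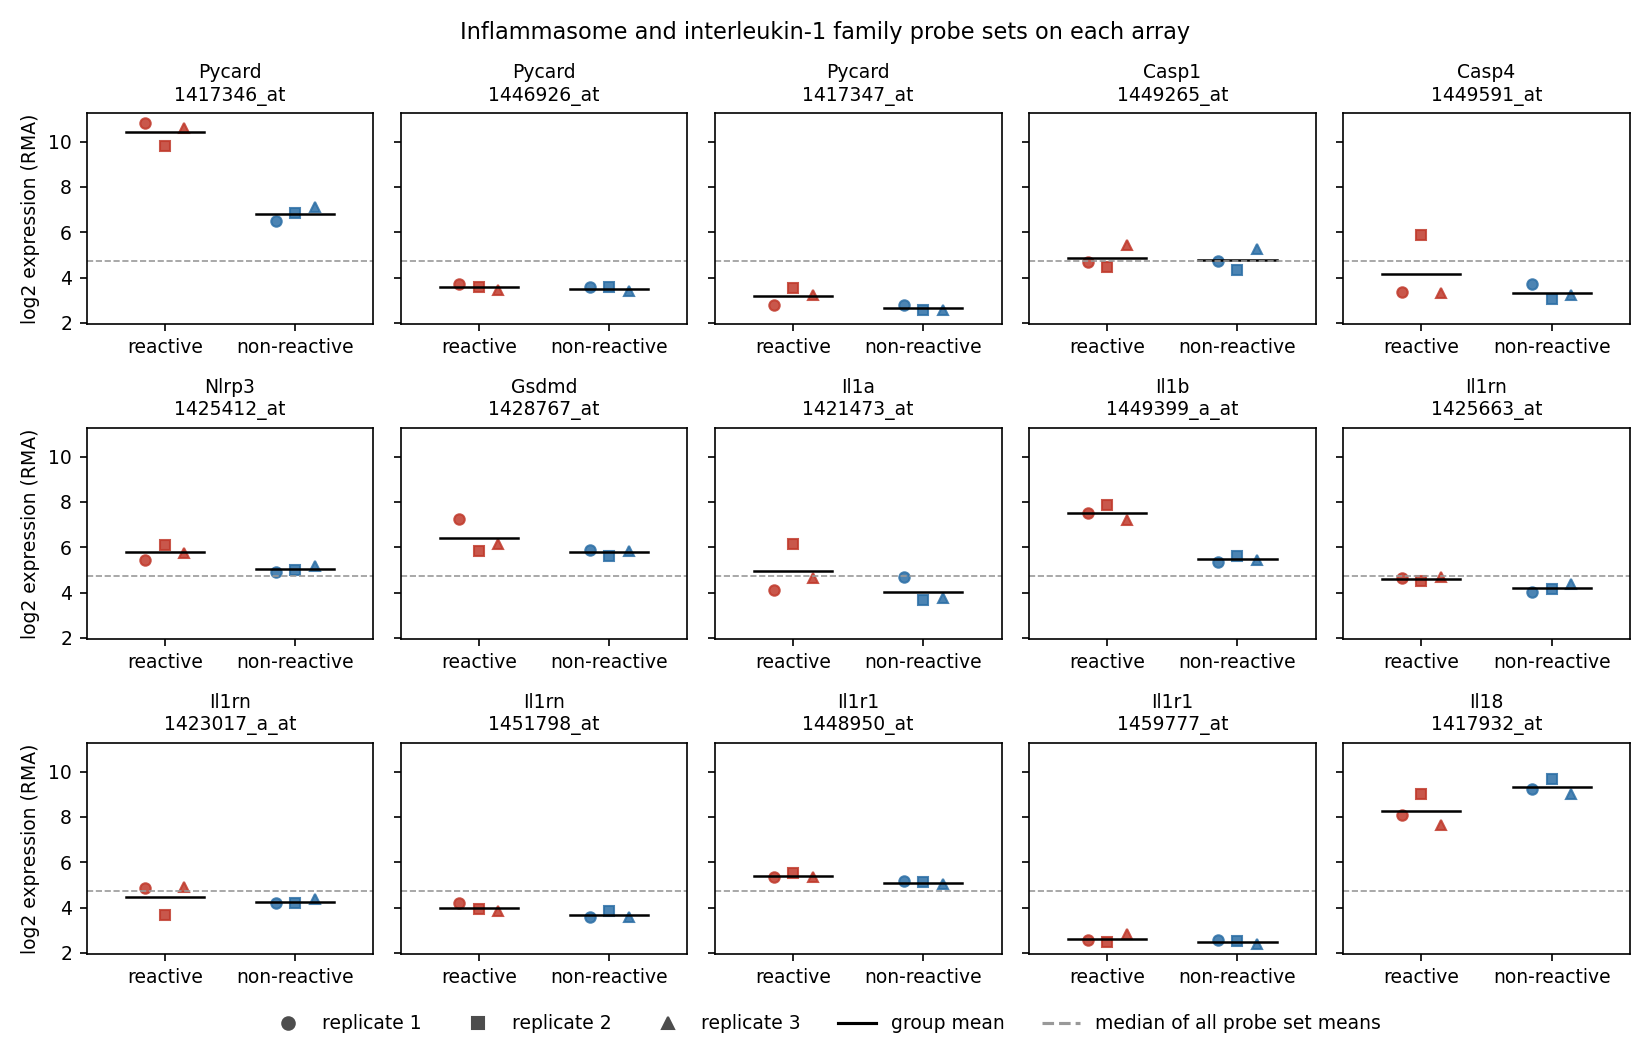
Log2 expression (RMA, vertical axis) of each of the 15 probe sets on the 3 reactive arrays (red, left) and the 3 non-reactive arrays (blue, right). Symbols mark the replicate number, black bars the group mean, and the dashed line 4.74, the median of all probe set means. The first Pycard probe set and Il1b stand apart between the groups, and 1 reactive array alone is high for Casp4 and for Il1a.

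Promoter windows are shown for the genes that passed, Pycard and Il1b, and for Il18, the member with the opposite sign. They are the 250 bases before the start site in the RefSeq promoter table of build GRCm38.p6, given 5′ to 3′. The array files name no build, and the windows serve only as sequence. Of the 10 genes 9 had an entry, with 14 windows in all. Gsdmd had none. Capitals mark matches, on either strand, to GAGGAA (PU.1, a myeloid factor), TGANTCA (AP-1), TATAAA (the TATA box), GAAA followed after any 2 bases by GAAA (the interferon-stimulated response element) and the κB motif of NF-κB.
Pycard (chr7:127993868-127994117, minus strand): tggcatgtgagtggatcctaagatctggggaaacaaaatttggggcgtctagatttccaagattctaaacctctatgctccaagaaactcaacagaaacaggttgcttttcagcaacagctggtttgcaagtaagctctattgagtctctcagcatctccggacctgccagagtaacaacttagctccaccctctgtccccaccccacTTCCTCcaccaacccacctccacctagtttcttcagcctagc
Il1b (chr2:129371140-129371389, minus strand): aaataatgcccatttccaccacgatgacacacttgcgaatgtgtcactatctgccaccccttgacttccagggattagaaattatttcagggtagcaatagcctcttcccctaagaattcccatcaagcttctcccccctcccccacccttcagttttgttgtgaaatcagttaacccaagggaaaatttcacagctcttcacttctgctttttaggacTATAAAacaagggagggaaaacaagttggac
Il18 (chr9:50554450-50554699, plus strand): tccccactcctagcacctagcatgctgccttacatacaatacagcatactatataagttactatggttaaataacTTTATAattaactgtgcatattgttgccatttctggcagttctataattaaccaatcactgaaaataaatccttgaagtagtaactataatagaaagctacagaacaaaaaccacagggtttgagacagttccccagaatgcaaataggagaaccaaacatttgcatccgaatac

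The Pycard window held 1 PU.1 match, read on the opposite strand 42 to 37 bases before the start. PU.1 matches also lay in windows of Casp1, Nlrp3 and Il1a, and in 23.3% of all 32851 windows. The Il1b window held a TATA box 31 to 26 bases before the start, and the Il18 window held these letters on the opposite strand, 175 to 170 bases before the start. The TATA letters also lay in the Il1a window and occurred in 12.4% of all windows. Neither the Pycard nor the Il1b window held the κB motif as searched, which occurred in 7.25% of all windows. It was found in windows of Casp4, Nlrp3 and Il1r1, and the 2 windows of Casp4 overlap and hold the same matches. AP-1 matches lay in a window of Il1a and of Il1rn, against 6.75% of all windows. No member window held the interferon-stimulated element, which occurred in 2.98% of all windows. A match is a run of letters and not a shown binding site.

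Pycard encodes ASC, the adaptor that links sensors to caspase-1. Its probe set of highest mean, 1417346_at, measured 10.84, 9.82 and 10.59 in the reactive arrays and 6.49, 6.86 and 7.12 in the non-reactive arrays. The lowest reactive array lay well above the highest non-reactive one. The log2 difference was 3.59 (SE 0.33, 95% interval 2.81 to 4.38, limma adjusted p = 0.0205). The 2 other Pycard probe sets lay on every array below 4.74, the dashed line of the plot by array. Of these, 1417347_at measured 2.80, 3.54 and 3.23 in the reactive arrays, against 2.77, 2.58 and 2.56 in the non-reactive arrays, a difference of 0.56 (SE 0.25). The other, 1446926_at, measured 3.44 to 3.71 and 3.39 to 3.56 in reactive and non-reactive arrays, and its difference of 0.07 was -0.02 under another quantile normalisation. The change of Pycard therefore rests on 1 of its 3 probe sets. Averaged over all 3, the gene differed by 1.41 and passed (limma adjusted p = 0.0235). That average is carried by 1417346_at and is no separate support for the gene.

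Nlrp3 encodes the sensor of the best studied inflammasome. It measured 5.45, 6.09 and 5.76 in the reactive arrays and 4.91, 4.99 and 5.18 in the non-reactive arrays. All reactive values were above all non-reactive ones, by a small margin at the closest pair. The log2 difference of 0.74 (SE 0.23, 95% interval 0.18 to 1.30) did not pass (limma adjusted p = 0.256), and it ran from 0.58 to 0.90 with each array left out in turn.

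Casp1 encodes the protease of the canonical inflammasome and Casp4, also called caspase-11 in the mouse, the protease that binds bacterial lipopolysaccharide inside the cell. Casp1 measured 4.69, 4.46 and 5.45 in the reactive arrays and 4.72, 4.32 and 5.28 in the non-reactive arrays. The groups lay on top of each other, and the interval of the log2 difference ran from -0.77 to 0.96 around 0.10 (limma adjusted p = 0.924). The sign of this difference was not settled, as it was -0.20 with reactive replicate 3 left out and -0.13 with non-reactive replicate 2 left out. Casp4 measured 3.34, 5.86 and 3.31 in the reactive arrays and 3.72, 3.05 and 3.24 in the non-reactive arrays. Reactive replicate 2 alone was high. The difference of 0.84 (SE 0.69) became -0.01 without that array and 1.27 without reactive replicate 3, and all other values of Casp4 lay below the median of 4.74.

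Gsdmd encodes gasdermin D, whose cut fragment forms the membrane pore through which interleukin-1 leaves the cell. It measured 7.26, 5.85 and 6.14 in the reactive arrays and 5.90, 5.60 and 5.82 in the non-reactive arrays. Reactive replicate 1 was high and the groups overlapped. The difference of 0.64 (SE 0.38, limma adjusted p = 0.514) was 0.23 without reactive replicate 1.

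Among the ligands, Il1b encodes interleukin-1β, the secreted cytokine that caspase-1 matures. It measured 7.52, 7.86 and 7.21 in the reactive arrays and 5.34, 5.62 and 5.43 in the non-reactive arrays. The groups were separate and the spread within each was small, with an SD of 0.32 among reactive and 0.15 among non-reactive arrays (n = 3 each). The log2 difference was 2.07 (SE 0.24, 95% interval 1.51 to 2.63, limma adjusted p = 0.0265). Its single probe set, 1449399_a_at, carries a suffix that Affymetrix gives to sets reading several transcripts, as a rule of the same gene.

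Il1a encodes interleukin-1α, which is active without caspase-1 and is released from damaged cells. It measured 4.13, 6.14 and 4.63 in the reactive arrays and 4.67, 3.67 and 3.74 in the non-reactive arrays. As with Casp4, reactive replicate 2 stood above the rest and the groups overlapped. The difference of 0.95 (SE 0.56, 95% interval -0.39 to 2.28) was 0.36 without that array.

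Il18 encodes the second cytokine that caspase-1 matures. It measured 8.10, 9.03 and 7.63 in the reactive arrays and 9.21, 9.69 and 9.02 in the non-reactive arrays. Reactive replicate 2 reached the level of the lowest non-reactive array, so the groups touched. The difference of -1.06 (SE 0.39, 95% interval -1.99 to -0.12) did not pass (limma adjusted p = 0.328), and it stayed below 0 with each array left out, between -1.44 and -0.74. Both of its group means, 8.25 for reactive and 9.31 for non-reactive arrays, lay far above the median of 4.74.

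Il1r1, the signalling receptor, measured 5.36, 5.50 and 5.35 in the reactive arrays and 5.16, 5.11 and 5.03 in the non-reactive arrays with its brighter probe set, 1448950_at. The groups did not overlap, but the difference was small, at 0.31 (SE 0.18, 95% interval -0.13 to 0.74, limma adjusted p = 0.513). The other probe set, 1459777_at, lay between 2.39 and 2.83 on all arrays and differed by 0.13 (SE 0.20).

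Il1rn, the receptor antagonist, was dim in both groups, with all 6 group means of its 3 probe sets below the median of 4.74. The probe set 1425663_at measured 4.66, 4.49 and 4.67 in the reactive arrays and 4.04, 4.15 and 4.37 in the non-reactive arrays, and its groups did not overlap. Its difference was 0.42 (SE 0.20, 95% interval -0.05 to 0.89, limma adjusted p = 0.421). The other probe sets differed by 0.32 (1451798_at, SE 0.20) and 0.23 (1423017_a_at, SE 0.37). The last measured 3.65 in reactive replicate 2 against 4.88 and 4.93 in the other reactive arrays, and the difference was 0.65 without that array, 0.0367 without reactive replicate 1 and 0.0127 without reactive replicate 3. The 3 probe sets of Il1rn thus all had differences above 0, and none passed.

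**Figure D2:**
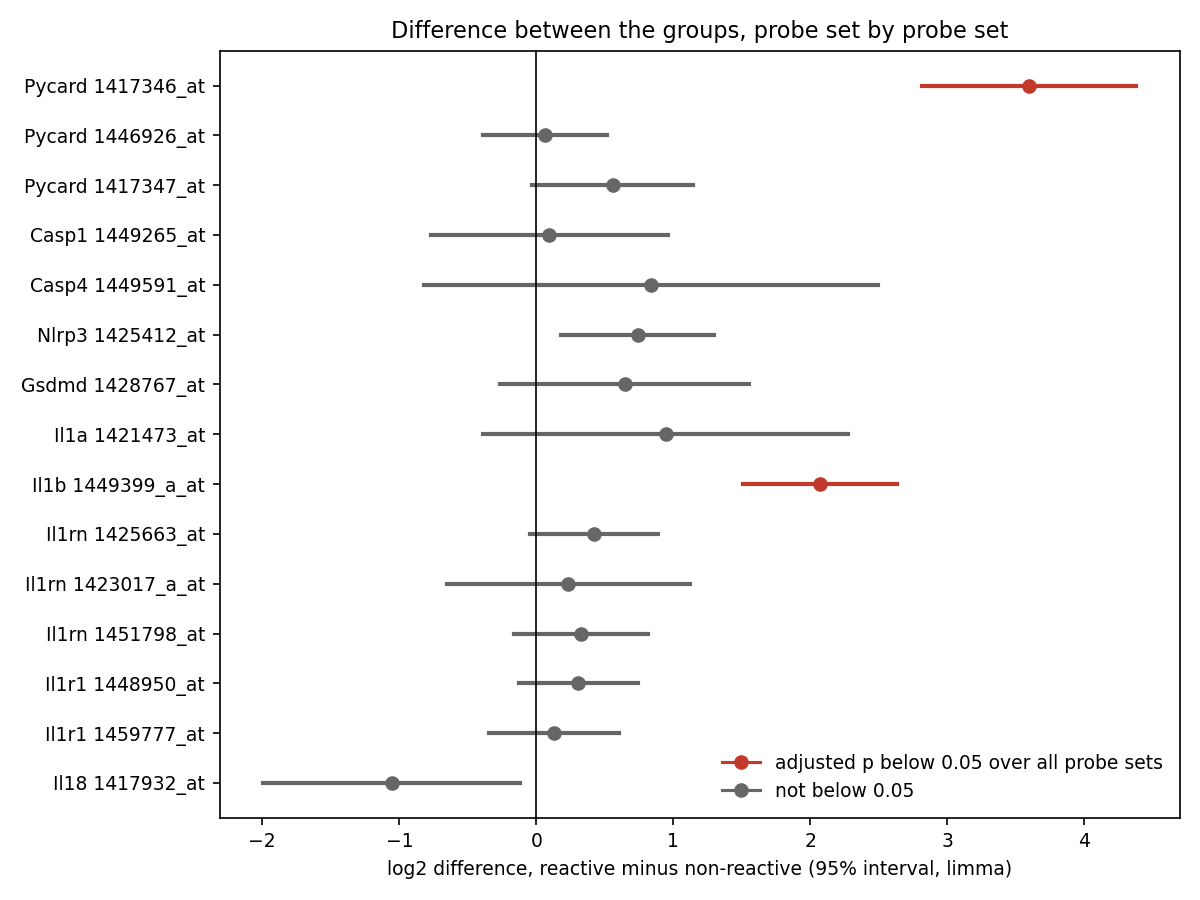
Log2 difference, reactive minus non-reactive, of each member probe set (points) with its 95% interval from limma (bars). Red marks the 2 probe sets with an adjusted p below 0.05 over all 45037 probe sets, Pycard at 3.59 and Il1b at 2.07. Of the 15 intervals 11 include 0.

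The calls of Pycard and Il1b were lost when some single arrays were left out. The limma adjusted p of Pycard was 0.0512 without reactive replicate 1 and 0.0795, 0.0788 and 0.0668 without non-reactive replicates 1, 2 and 3. That of Il1b was 0.0698 without reactive replicate 1, 0.0533 without reactive replicate 2 and 0.0971, 0.098 and 0.0981 without non-reactive replicates 1, 2 and 3. Both still passed without reactive replicate 3, each at 0.0415, and Pycard also without reactive replicate 2, at 0.0342. Over all probe sets the count of calls fell as well, to between 1 and 4 of 45037 without any 1 non-reactive array, against 383 with all arrays. The sizes moved little, between 3.38 and 3.89 for Pycard and between 1.91 and 2.23 for Il1b.

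**Figure D3:**
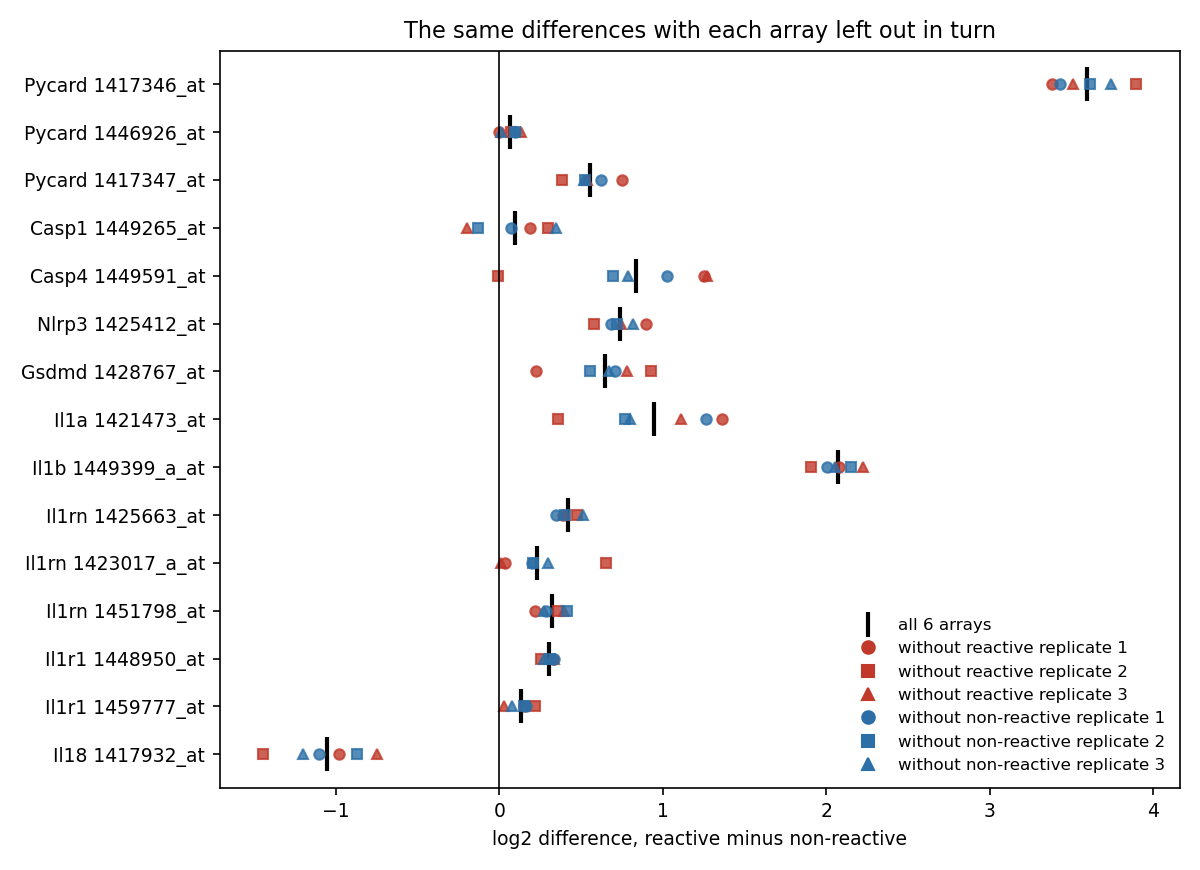
Log2 difference, reactive minus non-reactive, of each member probe set with all 6 arrays (black bar) and with each array left out (red, a reactive array left out; blue, a non-reactive array left out; symbols give the replicate number). Casp4 goes to -0.01 and Il1a to 0.36 without reactive replicate 2, whereas Pycard stays between 3.38 and 3.89 and Il1b between 1.91 and 2.23.

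The median SD of the member probe sets was 0.37 for reactive and 0.16 for non-reactive arrays, and that of all probe sets was 0.35 and 0.27. Among the 3 reactive arrays, replicate 2 was the highest for 7 of the 15 member probe sets, against 29% of all probe sets. Probe sets of 1 gene are counted separately here, and neither comparison was tested.

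The other genes of the pathway came from 4 lists with 79 measured genes of 93, written with earlier results of these data known. Across the lists 1 gene passed, while 0.951% of all genes passed in either direction. Of 23 other inflammasome genes limma called 0, with 8 at an unadjusted p under 0.05, of which 5 were higher and 3 lower. Over all genes 15% had an unadjusted p under 0.05. The median difference of these 23 was 0.23, against 0.12 over all genes. Ninj1, which drives the final rupture of the dying cell's membrane, measured 11.08, 10.69 and 12.02 in the reactive arrays and 9.42, 9.99 and 10.03 in the non-reactive arrays, a difference of 1.45 (SE 0.38, limma adjusted p = 0.178). Gbp3, an interferon-induced guanylate-binding protein, differed by 1.41 (SE 0.33) and Naip6, a sensor partner of bacterial flagellin, by 0.98 (SE 0.36). Nlrx1, a mitochondrial member of the NLR family, differed by -1.44 (SE 0.32). These 4 had groups that did not overlap and none passed. Of the 23 genes, 5 were higher and 3 lower without overlap, against 13.5% and 8.2% of all genes. Nek7, a kinase that binds NLRP3, differed by -0.06 (SE 0.32), and P2rx4, an ATP-gated channel, by 1.09 (SE 0.52). The P2rx4 value comes from a probe set with the suffix _a_at. It was 0.14 without suffixed probe sets, 0.18 with all probe sets averaged, 1.68 without reactive replicate 2 and 0.67 without reactive replicate 3.

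Of 11 other ligands, receptors and binding proteins of the interleukin-1 family limma called 0, and 0 had an unadjusted p under 0.05. All 11 differences lay above 0, between 0.0003 and 0.59, with a median of 0.23. Il33, a nuclear alarmin of glial cells, measured 8.82, 8.45 and 8.77 in the reactive arrays and 8.74, 8.75 and 8.55 in the non-reactive arrays. Its groups coincided, with an interval of -0.48 to 0.48 for the difference. Il18bp, the soluble inhibitor of interleukin-18, differed by 0.59 (SE 0.26), Il1rl2, the interleukin-36 receptor, by 0.42 (SE 0.21) and Il18rap, a chain of the interleukin-18 receptor, by 0.42 (SE 0.31). Il18bp differed by 0.36 without reactive replicate 3, and Il18rap by 0.21 and 0.19 when replicate 1 of the reactive or of the non-reactive arrays was left out. Il1rl2 differed by 0.70 with its probe sets averaged.

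Of 20 signal transducers between the receptor and NF-κB limma called 0, with 2 higher and 4 lower at an unadjusted p under 0.05, against 15% of all genes. Their median difference was -0.04. Nfkbib, which encodes the inhibitor IκBβ, measured 6.67, 6.49 and 6.88 in the reactive arrays and 5.54, 5.00 and 5.44 in the non-reactive arrays, a difference of 1.35 (SE 0.23, limma adjusted p = 0.0654). Its probe set carries the suffix _s_at, given to sets that can read several genes, and a probe set of Nfkbib without such a suffix differed by -0.000667, and the average of its probe sets by 0.68. Myd88, the receptor's adaptor, differed by -0.61 (SE 0.24), the kinases Irak1 and Map3k7 by -0.74 (SE 0.28) and -0.997 (SE 0.35), and Tab2, a partner of Map3k7, by -0.57 (SE 0.21). Irak1 differed by -1.35 without suffixed probe sets, and Map3k7 by -0.47 with its probe sets averaged. Tollip, an inhibitor of IRAK1, differed by -0.01 (SE 0.35). The groups did not overlap for Myd88, Irak1, Map3k7 and Tab2, with lower reactive values, and for Nfkbib, with higher ones. Without overlap, 1 of the 20 was thus higher and 4 lower, against 13.5% and 8.2% of all genes.

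Of 25 genes known to be induced by interleukin-1 through NF-κB, Cxcl1 rose and none fell. Whether interleukin-1 acted on these genes here was not tested. An unadjusted p under 0.05 was found for 9 of the 25, of which 8 were higher, against 15% of all genes. The lower one, Vcam1, differed by -1.31 (SE 0.48), with groups that did not overlap. Cxcl1, a neutrophil chemokine, measured 9.15, 9.14 and 8.74 in the reactive arrays and 7.36, 7.74 and 7.40 in the non-reactive arrays, a difference of 1.51 (SE 0.22, limma adjusted p = 0.0462). Its call was lost without any 1 of the 6 arrays, with a limma adjusted p of 0.0618 to 0.15. The difference was 2.81 (limma adjusted p = 0.282) once probe sets with the suffixes _x_at, _s_at and _a_at were left out, and averaging all Cxcl1 probe sets gave 2.46 (limma adjusted p = 0.0446). The median difference of the 25 genes was 1.10, against 0.12 over all genes, and 22 differences lay above 0. Without overlap, 10 of the 25 were higher and 1 lower, against 13.5% and 8.2% of all genes. Tnfaip3, which encodes the NF-κB inhibitor A20, measured 8.36, 10.59 and 9.23 in the reactive arrays and 7.28, 6.39 and 6.96 in the non-reactive arrays, a difference of 2.52 (SE 0.57, limma adjusted p = 0.123). Saa3, an acute phase protein, differed by 2.98 (SE 0.53) and the transcription factor genes Cebpb and Cebpd by 1.99 (SE 0.37) and 2.16 (SE 0.74). These 4 had groups that did not overlap, and none of them passed. Averaged over their probe sets, Tnfaip3 differed by 1.65 and passed (limma adjusted p = 0.0445), while Cebpb differed by 1.28 and Cebpd by 1.39, without passing. Without reactive replicate 3 Cebpd differed by 1.37. Nfkbia, which encodes IκBα, differed by 1.37 (SE 0.22, limma adjusted p = 0.0572), and Sod2, a mitochondrial superoxide dismutase, by -0.45 (SE 0.30). Sod2 differed by -0.27 without reactive replicate 1, -0.28 without non-reactive replicate 1 and -0.68 without non-reactive replicate 3.

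**Figure D4:**
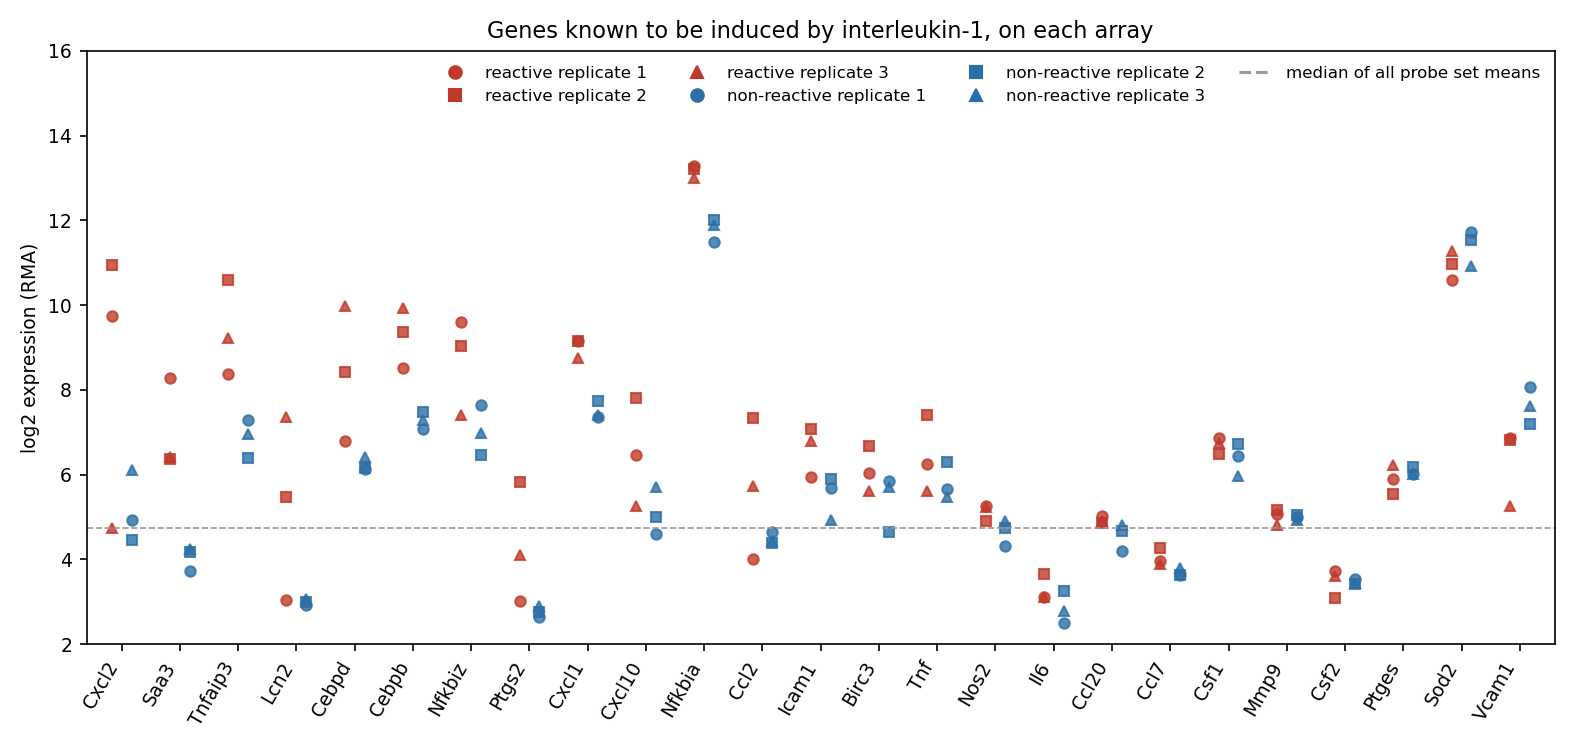
Log2 expression (RMA, vertical axis) of 25 genes known to be induced by interleukin-1, on the reactive (red, left of each pair) and non-reactive (blue, right) arrays. Symbols give the replicate number and the dashed line is 4.74, the median of all probe set means. Genes run from the largest to the smallest difference, of which 22 lie above 0.

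The marker lists of cell types were read beside the members. Over all genes 0.39% passed as higher and 0.561% as lower, and 15% had an unadjusted p under 0.05. Of 21 measured markers of microglia and macrophages, 7 rose and none fell. At an unadjusted p under 0.05, 16 of these markers were higher, and the median difference was 1.77. Their summed level on the linear scale ran from 27275 to 44049 in the reactive arrays and from 10688 to 11228 in the non-reactive arrays. None was at 0, and Itgam alone had both group means below 4.74. Of these markers 3 had a larger difference than Pycard and 9 a larger one than Il1b. All 21 marker differences lay above 0, so each exceeded the negative one of Il18 by its sign alone. Of 16 markers of monocytes and neutrophils, Lyz2 and Plac8 rose, 3 were higher at an unadjusted p under 0.05, and the median difference was 0.30. The differences of Ccr2, Ngp, Csf3r and Ltf lay below 0, between -0.44 and -0.03. The summed level of the 16 was 2052 to 4862 on reactive arrays, against 340 to 508 on non-reactive arrays, and Lyz2, at 10.52 to 11.63 on the log2 scale in the reactive arrays, was its brightest gene there. None was at 0, although 6 of the 16 had both means below 4.74. Of 11 oligodendrocyte markers, Ermn rose, and 8 were higher and 1 lower at an unadjusted p under 0.05. The median difference of these 11 was 1.50, and 10 differences lay above 0. Their summed level was 24879 to 26516 on reactive arrays, against 20120 to 25782 on non-reactive arrays. The lower marker, Mbp, was the brightest of the 11 and weighs most in that sum, with means of 13.33 in reactive and 13.83 in non-reactive arrays. Of 9 lymphocyte and 10 endothelial markers limma called 0, and 0 had an unadjusted p under 0.05. It also called 0 of 6 markers of oligodendrocyte precursors, 12 of neurons and 9 of pericytes, of which 1, 1 and 3 had an unadjusted p under 0.05. The median difference was 0.11 for lymphocytes, 0.35 for endothelium, 0.50 for oligodendrocyte precursors, -0.20 for neurons and 0.25 for pericytes. Neuron markers had a summed level of 9395 to 18409 on reactive arrays, against 15269 to 20219 on non-reactive arrays. Endothelial markers were uneven among the reactive arrays. Their summed level was 344, 282 and 1400 on reactive replicates 1, 2 and 3, against 244 to 348 on non-reactive arrays. Of 15 astrocyte markers 5 fell and 1, Gfap, rose. Gfap alone had a difference above 0, the median difference was -1.68, and 13 markers were lower at an unadjusted p under 0.05. Their summed level was 24852 to 25454 on reactive arrays, against 46843 to 64441 on non-reactive arrays. The sort of reactive cells relied on GFAP promoter activity, so Gfap is no independent marker here. The same holds for Aldh1l1, whose sequences drove the reporter in the sort of non-reactive cells. Aldh1l1 differed by -0.57 (SE 0.23) and is among the 13 lower markers. Between arrays the correlation was 0.901 to 0.921 among reactive arrays and 0.95 to 0.963 among non-reactive arrays. Across the groups it was 0.889 to 0.93, which spans the range among the reactive arrays. The 3′ minus 5′ difference of the control probe sets, a sign of RNA quality and amplification, did not overlap between the groups. It averaged 4.17 in reactive and 5.19 in non-reactive arrays for Gapdh, 3.38 and 5.05 for Actb, 1.44 and 3.46 for Pcx, and 0.83 and -1.16 for 18S rRNA. The part of these markers and controls in the values of Pycard, Il1b and the other members was not tested.

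**Figure D5:**
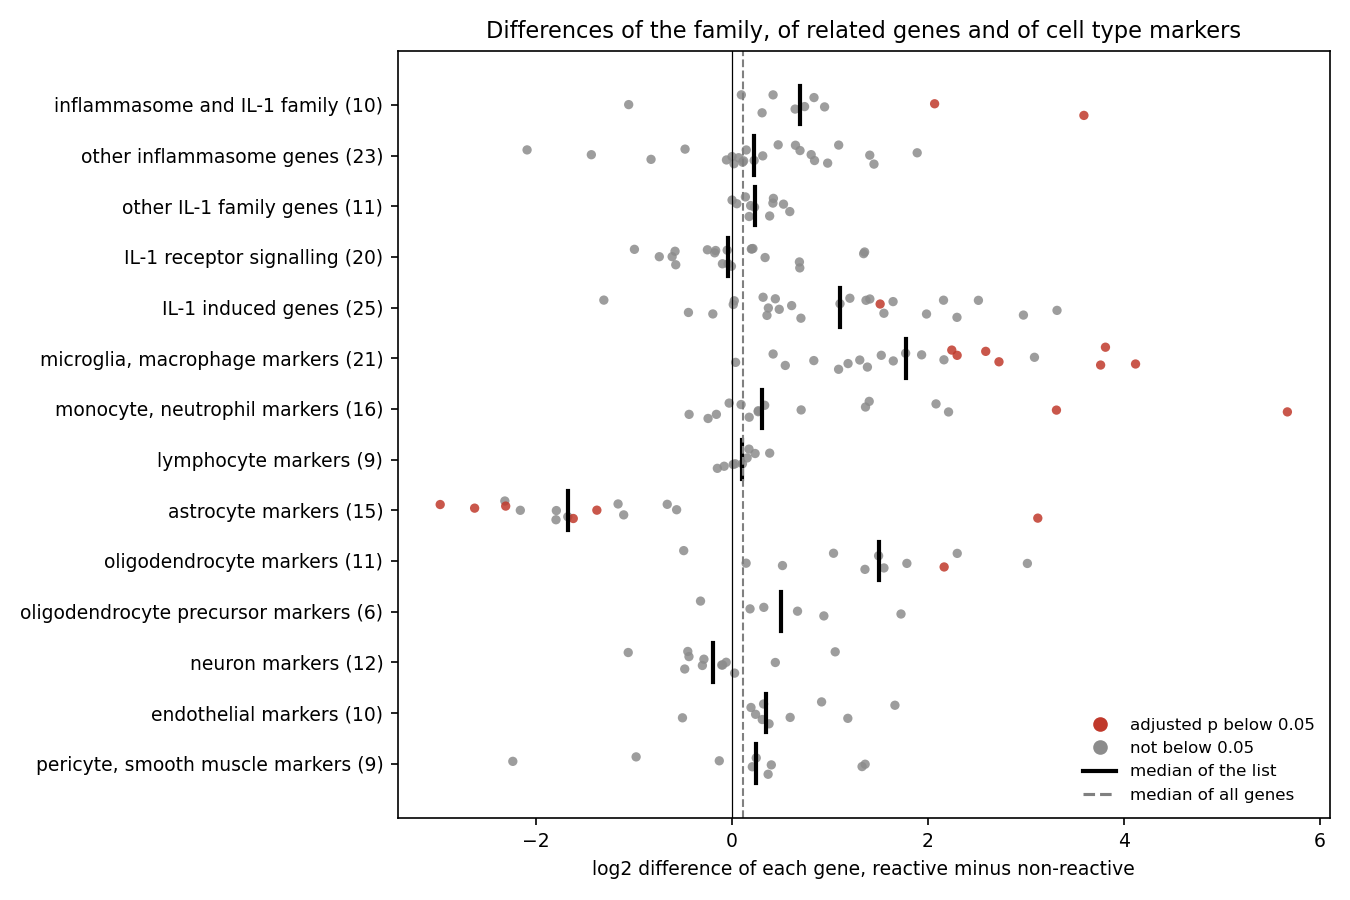
Log2 difference, reactive minus non-reactive, of each gene (points; vertical scatter only separates them) in the family, in the 4 lists of related genes and in the marker lists, with the number measured in brackets. Red points passed the threshold, black bars are list medians and the dashed line is the median of all genes, 0.12. The list median is 0.69 for the family, 1.10 for genes induced by interleukin-1 and 1.77 for markers of microglia and macrophages.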

How the data were processed

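Gene expression was measured on 6 Affymetrix mouse arrays, 3 of each group. The deposited values are log2 expression values per probe set that the authors made with RMA, per the submitters' processing notes. Its version and settings, and which arrays were normalised as 1 set, are not stated in these sources. The array medians lay between 4.65 and 4.73. RMA equalises the arrays, so a change in total RNA cannot be seen, and precision is limited by the number of arrays.

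Of 45101 probe sets 64 controls were left out. The annotation gave 1 symbol for 34945 probe sets, several for 932 and none for 9160. No probe set with several symbols held a member. The mouse gene table of GRCm38.p6 gave the same symbol for all 10 members. A gene was represented by its probe set with the highest mean.

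Groups were compared in R 4.3.3 with limma 3.58.1 (lmFit, then eBayes) on all arrays without covariates, two-sided. The fit was also run on simulated, independent values with the same spread in both groups. That run checked the code and not the calls of these arrays. The labels call the arrays biological replicates. With 3 arrays against 3 an exact permutation test cannot give a p below 0.1, and none was used.

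The members, lists, tests and alternatives were chosen with earlier results of these data known. From each pathway list the text names genes past the threshold, up to 4 others with the largest difference and no overlap, and 2 others with the highest mean. Itgam, Vcam1, the markers and the TATA letters were treated outside that rule. Protein sequences were not used here. The alternatives were another quantile normalisation, median centring, eBayes with a trend or robust, removal of dim probe sets or of suffixes _x_at, _s_at and _a_at, averaging of all probe sets per gene, the replicate number as a block and each array left out.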

Additional observations from a re-analysis of the deposited data

How the results depend on the processing

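Of the 15 member probe sets, 2 passed with all arrays, and also under another quantile normalisation, median centring, eBayes with a trend or robust, and without dim probe sets. Without probe sets with the suffixes _x_at, _s_at and _a_at 1 passed, Pycard, since the Il1b probe set is then left out. In a fit with a replicate block limma called 0 member probe sets, with 4 at an unadjusted p under 0.05, and 1 of 45037 in all. With each array left out the count ran from 0 to 2, with 2 to 6 at an unadjusted p under 0.05. Of the 79 pathway genes 1 passed, Cxcl1. The count was 0 under quantile normalisation, robust eBayes, removal of suffixes and the block, with 20, 22, 20 and 21 at an unadjusted p under 0.05. In the main fit 23 of the 79 had such a p, against 15% of all genes. Shares of all genes or probe sets at such a p under the alternatives are not given here. The count of pathway genes that passed was 0 to 1 with each array left out. It was 3 when all probe sets per gene were averaged, namely Cxcl1, Nfkbia and Tnfaip3. With a trend the 1 gene was Nfkbia, and without reactive replicate 3 it was Cxcl2. Deviations of same-numbered arrays from their group means correlated at -0.07, -0.11 and 0.04. Those of differently numbered arrays correlated at -0.11 to 0.19. With 3 arrays in each group these values cannot decide whether replicate numbers pair the arrays. Under the block the limma adjusted p was 0.105 for Pycard and 0.111 for Il1b.

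Some differences changed sign. Under quantile normalisation Pycard 1446926_at (0.07) was at -0.0212, under median centring Tollip was at 0.0107, with all its probe sets averaged Tollip was at 0.26, and without suffixed probe sets Nfkbib (1.35) was at -0.000667. With each array left out, differences ran from -0.00367 to 0.13 for Pycard 1446926_at, -0.20 to 0.35 for Casp1, -0.00817 to 1.27 for Casp4 (0.84), -0.32 to 0.16 for Nek7, -0.068 to 0.11 for Il33 and -0.33 to 0.20 for Tollip. The cause was not tested.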

Other observations

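The reactive arrays differed among themselves in the list of genes known to be induced by interleukin-1. Which signal lay behind these values was not tested. Cxcl2 and Lcn2 are named here after their values were seen. Cxcl2, a neutrophil chemokine, measured 9.75, 10.96 and 4.74 in the reactive arrays and 4.93, 4.46 and 6.10 in the non-reactive arrays, so 2 reactive arrays were high and replicate 3 was not. Lcn2, the iron-binding protein lipocalin-2, measured 3.04, 5.48 and 7.35 in the reactive arrays and 2.93, 2.98 and 3.06 in the non-reactive arrays. There replicate 3 was the highest and replicate 1 lay at the non-reactive level. Neither gene passed (limma adjusted p of 0.417 for Cxcl2 and 0.386 for Lcn2). Among the 25 induced genes the highest of the 3 reactive values lay in replicate 1 for 9, in replicate 2 for 11 and in replicate 3 for 5. Over all probe sets these shares were 39.3%, 29% and 31.8%.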
